A study of Drosophila melanogaster with 12 samples.

Results

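ORC2 binding sites of the larval fat body were compared between late-3rd instar and mid-3rd instar by taking every region in the deposited lists of these stages and asking which lay within 1 kb of a region of the other stage. The late-3rd instar list holds 706 regions and the mid-3rd instar list 2053, together 2759 of the 6998 regions listed over 3 stages. The series profiled ORC2 by ChIP-seq (immunoprecipitation of crosslinked chromatin followed by sequencing) in fat body of wild-type male OregonR larvae, the same strain, genotype and sex at each stage, with no treatment. The late-3rd instar larvae were wandering, and those of mid-3rd instar were taken 91 to 92 h after eggs were laid. Each stage has 2 biological replicates of pooled tissue from 60 larvae, each with an input library, so that 8 of the 12 libraries of the series belong to these stages. The testes, which lie in the fat body of males, were removed by hand. No RNA was counted in these lists, so the label of the tissue could not be checked against its markers.

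ORC2 is a subunit of the origin recognition complex, which binds DNA and loads the MCM helicase on it before S phase, so its sites mark places where replication may start. The fat body is the larval organ that stores fat, glycogen and protein, and its cells become polyploid by the endocycle, in which S phases follow each other without mitosis. Pulses of the steroid hormone ecdysone near the end of larval life drive wandering and the onset of metamorphosis, when the larval fat body stops growing and is remodelled.

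Far fewer ORC2 sites were listed at late-3rd instar, and most of those found by replicate 2 were places already listed at mid-3rd instar. Peaks called in the single replicates, by the program MACS2 at a q-value threshold of 0.05, numbered 370 and 500 at late-3rd instar, against 930 and 1994 at mid-3rd instar. Both late-3rd instar replicates lay below both mid-3rd instar replicates. The means were 435 ± 91.9 peaks at late-3rd instar and 1462 ± 752 peaks at mid-3rd instar (SD, n = 2 each), a difference of -1027 peaks. Permuting the replicates exactly, two-sided, gave p = 0.33, the smallest p that 2 replicates against 2 allow, so the design could not pass 0.05. By the merged regions the ratio of mid-3rd to late-3rd instar was 2.91, and by the high-confidence peaks, those that the authors kept at an irreproducible discovery rate (IDR) under 0.1 between replicates, it was 5.12 (60 late-3rd instar and 307 mid-3rd instar peaks). Sequencing depth is unknown here, and a peak count can vary with it.

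Of the 2053 mid-3rd instar regions, 432 (21%, 95% Wilson interval 19.3 to 22.9) had a late-3rd instar region within 1 kb and are called kept, and 1621 had none and are called lost. The kept share was 18.7% without late-3rd instar replicate 1 and 6.38% without replicate 2. Of the 706 late-3rd instar regions, 426 (60.3%, 56.7 to 63.9) had a mid-3rd instar region within 1 kb, and 280 (39.7%) had none and are called gained. Intervals treat regions as independent and cover counting error only. A lost or gained site is one not called at the given threshold, which is not the same as a site without ORC2.

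The replicates that carried a region went with its fate. Late-3rd instar regions with peaks of both replicates had a mid-3rd instar counterpart in 75 of 91 cases (82.4%, 73.3 to 88.9), those of replicate 2 alone in 299 of 377 (79.3%, 74.9 to 83.1), and those of replicate 1 alone in 52 of 238 (21.8%, 17.1 to 27.5). The regions called gained were therefore mostly those of replicate 1 at late-3rd instar, with 186 from it alone, 78 from replicate 2 alone and 16 from both. With replicate 2 alone, the gained regions were 94 of 468 (20.1%). Of the 280 gained regions, 143 (51.1%) were near (within 1 kb of) a region listed at 2nd instar, against 543 of all 706 late-3rd instar regions (76.9%). The share was 44.6% for gained regions of replicate 1 alone and 65.4% for those of replicate 2 alone. Gained regions were thus near a 2nd instar region less often than all regions, yet only part of them were places not listed at an earlier stage.

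**Figure D1:**
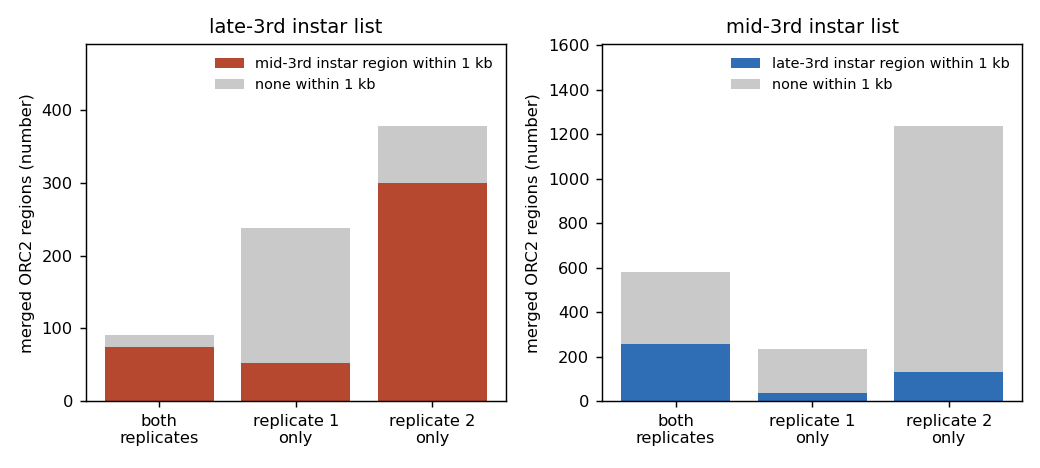
Number of merged ORC2 regions (vertical axis) by the replicates whose peaks they hold, for the late-3rd instar list on the left and the mid-3rd instar list on the right, whose axes differ in scale. Coloured parts had a region of the other stage within 1 kb and grey parts had none; at late-3rd instar 186 of the 238 regions of replicate 1 alone were grey, and at mid-3rd instar 1103 of the 1236 regions of replicate 2 alone were.

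At mid-3rd instar, regions seen in both replicates were kept more often than regions of a single replicate. Of 582 regions with peaks of both replicates, 259 (44.5%, 40.5 to 48.6) were kept, against 40 of 235 regions (17%, 12.8 to 22.3) of replicate 1 alone and 133 of 1236 (10.8%, 9.15 to 12.6) of replicate 2 alone. The intervals of the single-replicate classes did not reach that of regions found in both. Even among mid-3rd instar regions found in both replicates, 323 had no late-3rd instar region of either replicate within 1 kb.

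The late-3rd instar replicates shared few regions. Of the 329 regions of replicate 1, 27.7% were also found in late-3rd instar replicate 2, 26.1% in mid-3rd instar replicate 1 and 35.6% in mid-3rd instar replicate 2. Late-3rd instar replicate 2 shared 19.4% of its 468 regions with its own partner, but 59.6% and 73.7% with mid-3rd instar replicates 1 and 2, lists that are longer than that of its partner. In the other direction it held 27.7% of the regions of late-3rd instar replicate 1, against 34.1% and 19.2% of those of mid-3rd instar replicates 1 and 2. The mid-3rd instar replicates, by comparison, shared 71.2% of the regions of replicate 1 and 32% of those of the longer replicate 2. Shares depend on the length of the list compared with, so they do not rank how alike the replicates are.

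**Figure D2:**
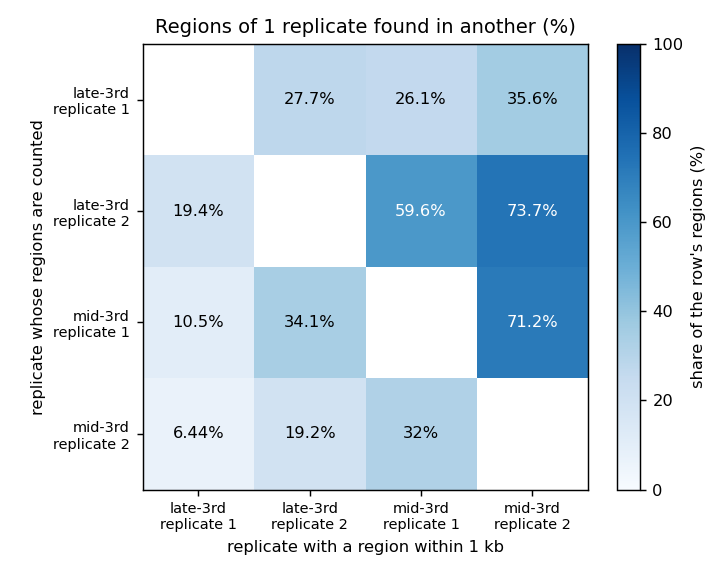
Share, in percent, of the regions of 1 replicate (rows) that hold a peak of, or lie within 1 kb of a region of, another replicate (columns). The row of late-3rd instar replicate 1 stays between 26.1% and 35.6%, and the row of late-3rd instar replicate 2 holds 59.6% and 73.7% against the mid-3rd instar replicates, whose lists are longer than those of late-3rd instar.

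In the high-confidence lists the late-3rd instar peaks were again largely places listed at mid-3rd instar. Among the 60 peaks of late-3rd instar, 32 (53.3%, 40.9 to 65.4) were matched within 1 kb by a peak of high confidence at mid-3rd instar, and 50 (83.3%, 72 to 90.7) by a mid-3rd instar region of any kind. Among the 307 peaks of mid-3rd instar, 31 (10.1%, 7.21 to 14) were matched at high confidence at late-3rd instar and 164 (53.4%, 47.8 to 58.9) by any late-3rd instar region. Many of the peaks shared at high confidence lay at the ribosomal RNA end of the X, on chromosome 4 or on the Y. Without these, 13 of 36 late-3rd instar peaks (36.1%) and 13 of 271 mid-3rd instar peaks (4.8%) had a high-confidence counterpart.

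The mid-3rd instar peaks that ranked best in both replicates were the ones most often kept. The mid-3rd instar high-confidence peaks were ranked by IDR and split into 4 classes of nearly equal size. In the class with the lowest IDR (1.91e-05 to 0.0205), 62 of 77 (80.5%, 70.3 to 87.8) had a late-3rd instar region within 1 kb. In the next classes the shares were 45.5%, 50% and 37.7%, and their intervals overlapped each other but not that of the first class. Against late-3rd instar replicate 1 alone the first class was kept at 36.4%, and against replicate 2 alone at 74%. Kept mid-3rd instar peaks had a median IDR of 0.033 and a median width of 730 bp, and lost ones 0.0533 and 566 bp. The ribosomal RNA end of the X held 17 of the mid-3rd instar peaks, with IDRs of 1.91e-05 to 0.0254. Most of these 17 fell in the class with the lowest IDR. The classes and medians were not computed without this end, chromosome 4 and the Y.

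Most regions overlapped a gene, whether kept or not. At late-3rd instar 81.2% of kept regions did, against 79.5% of all regions. At mid-3rd instar 82.9% of kept regions did, against 86.3% of all regions and 87.2% of lost ones. Positions are given in Release 6 of the genome. Among the peaks of high confidence at both stages, the lowest late-3rd instar IDR (0.0022, against 0.000245 at mid-3rd instar) belonged to a peak on the Y at 652931 to 653246, inside kl-2, a male fertility gene that encodes a dynein heavy chain of the sperm tail. The next lay on the X at 21836372 to 21838414, 45641 bp beyond the annotated end of lncRNA:flam, the flamenco piRNA cluster that keeps retrotransposons silent in the ovary (IDR 0.00591 at late-3rd instar and 0.0398 at mid-3rd instar). Beside it, at 21842914 to 21843782, lay the late-3rd instar peak with the lowest IDR of the whole list (0.00013), which had a mid-3rd instar region within 1 kb but no mid-3rd instar peak of high confidence. Of the 10 kept sites with the lowest late-3rd instar IDR, 5 lay in the ribosomal RNA end of the X. Another of the 10 overlapped stol, which encodes a calcium channel subunit (IDR 0.0215 at late-3rd instar and 0.0807 at mid-3rd instar).

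Of the 10 lost peaks with the lowest mid-3rd instar IDR, 9 overlapped a gene, as did 86.3% of all mid-3rd instar regions. The first was on 3L at 16801431 to 16801781 in CG9674 (IDR 0.00575), the second on 2L at 2906121 to 2906929 in lilli, which encodes a subunit of the super elongation complex of RNA polymerase II (IDR 0.00604). Others overlapped Adf1, a transcription factor gene (0.0107), SNF4Agamma, the gamma subunit of the energy sensor AMPK (0.0115), ND-20, a subunit of mitochondrial complex I, with eIF5, a translation initiation factor (0.0154), and slmo (0.0166). A lost peak did not always leave its gene without ORC2: CG9674 held 2 late-3rd instar regions, close enough that both of its wider mid-3rd instar merged regions count as kept, lilli 1 and SNF4Agamma 7, while Adf1, ND-20, eIF5 and slmo held none.

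Only 10 late-3rd instar high-confidence peaks had no mid-3rd instar region within 1 kb, and all 10 are named here. Of these, 4 lay in 1 stretch of 2L described next, and the others were at CG30095 on 2R (IDR 0.0339), at the calcium pump gene PMCA on chromosome 4 (0.0474), in br on the X (0.0486), and in gene-poor sequence of the X at 52986 to 53379 (0.0675), of the Y at 883877 to 884493 (0.0933) and of 3L at 87745 to 88219 (0.0962). The 16 merged regions gained with peaks of both late-3rd instar replicates covered these places, with others in spen, raw and bun, farther along the Y and in 3L at 26949453 to 26950166. No gene lay within 1 kb of 9 of these 16 (56.2%, 33.2 to 76.9), against 25 of the 75 kept regions of both late-3rd instar replicates (33.3%, 23.7 to 44.6) and, at mid-3rd instar, 41 of the 323 lost regions of both replicates (12.7%, 9.5 to 16.8). Over all 280 gained regions the share was 15.4%, against 13.1% of all 426 kept late-3rd instar regions, so it did not differ beyond their intervals (11.6 to 20 and 10.3 to 16.7). Some of the 9 gene-distant regions of both replicates lay in the 2L stretch described next, and those may not be separate sites.

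A cluster of gained regions lay in a gene-free interval of 2L, 113 kb long, between CG10651 and lncRNA:CR40341 (20134924 to 20248038). Here 6 late-3rd instar regions lay within 21.2 kb, at 20176888 to 20198133, with 6 peaks of replicate 1 and 4 of replicate 2. All 4 high-confidence peaks among them were 576 to 2948 bp wide, with an IDR of 0.0104, 0.0264, 0.0715 and 0.083. In order of position they began at 20176784, 20183618, 20190553 and 20197450, which is nearly even spacing. Whether this stretch is repeated sequence was not tested, so the 4 peaks may not be separate sites. The only mid-3rd instar region of the interval, with 1 peak of each replicate, began 1878 bp beyond the last late-3rd instar region, and none of these 4 peaks was near a 2nd instar region. The 100 kb window of chromosome 4 at 100001 to 200000 also gained 6 regions, beside 2 that were kept. The 2L interval was chosen for description once its values were known.

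The opposite pattern was seen on 2R, between 3900001 and 4000000, where the gene table lists 2 genes. This 100 kb window held 0 late-3rd instar regions and 11 mid-3rd instar regions, with 11 peaks in each mid-3rd instar replicate. One of them was the third of the lost high-confidence peaks, at 3993828 to 3994842 (IDR 0.00751), 19269 bp from Haspin, a histone H3 kinase gene. This window was also chosen for description once its values were known, and whether it holds repeated sequence was not tested.

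Chromosome 4, a small chromosome that is largely heterochromatic but carries active genes, kept a larger share of its mid-3rd instar regions than other arms. It held 80 late-3rd instar and 91 mid-3rd instar regions, so the list hardly shortened there, and 48 of the 91 (52.7%, 42.6 to 62.7) were kept. The kept share was 19% on 2L, 20.7% on 2R, 19.4% on 3L, 20.2% on 3R and 18.2% on the X, and these differed by less than their intervals. Late-3rd instar regions were gained about as often on chromosome 4 (33 of 80, 41.2%) as on the large autosomal arms (40.6%). Regions lie close together on this small chromosome, so a match within 1 kb by position alone is likelier there. How much of its kept share comes from this was not tested. Against late-3rd instar replicate 1 alone chromosome 4 kept 25.3% and the other arms 2.32% to 11.4%, and against replicate 2 alone 44% and 16.1% to 18.6%. As a share of the peaks of each replicate, chromosome 4 took 15.9% and 10.2% at late-3rd instar, against 5.91% and 4.96% at mid-3rd instar, and the stages did not overlap. The means were 13.1 ± 4.06% at late-3rd instar and 5.44 ± 0.671% at mid-3rd instar (SD, n = 2 each), and their exact two-sided permutation p was 0.33, again the smallest that this design allows. Counts of peaks on chromosome 4 were 59 and 51 in the late-3rd instar replicates and 55 and 99 in the mid-3rd instar replicates, so the numbers there overlapped between the stages, while the large autosomal arms together held 549 late-3rd instar and 1674 mid-3rd instar regions. On the Y, 8 late-3rd instar and 7 mid-3rd instar regions were listed, and 2 of the 7 were kept.

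**Figure D3:**
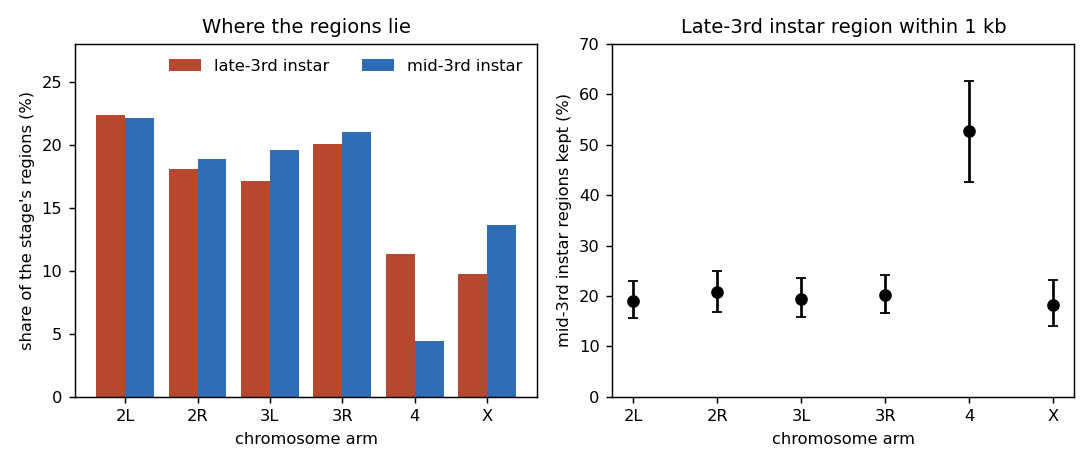
Left, share of each stage's merged regions (percent) by chromosome arm, with late-3rd instar bars left of mid-3rd instar bars. Right, share of mid-3rd instar regions with a late-3rd instar region within 1 kb (points) with 95% Wilson intervals (bars). Chromosome 4 stands apart at 11.3% of the late-3rd instar and 4.43% of the mid-3rd instar list and at 52.7% kept, while the other arms lie between 18.2% and 20.7% kept. Regions lie closer together on chromosome 4, which makes a match within 1 kb likelier there.

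The thinner late-3rd instar list left longer stretches without a site. Neighbouring regions were a median of 48.8 kb apart at late-3rd instar and 23.9 kb at mid-3rd instar, and 82 gaps at late-3rd instar against 21 at mid-3rd instar exceeded 500 kb. The longest gap, on the X at 3743602 to 6206849, spanned 2463 kb at late-3rd instar, while the longest at mid-3rd instar spanned 857 kb. By single replicate the median distance was 57.1 and 122 kb at late-3rd instar, against 76.6 and 26.8 kb at mid-3rd instar, so it overlapped between the stages, whereas gaps over 500 kb numbered 73 and 88 against 60 and 23. Over windows of 100 kb, 384 held a late-3rd instar region and 831 a mid-3rd instar region, and 354 held both. Of the windows with a late-3rd instar region 92.2% also held a mid-3rd instar region, and 42.6% of the mid-3rd instar windows held a late-3rd instar region. Of all 1378 windows, 60.2% held a mid-3rd instar region. Of the 189 windows with a gained late-3rd instar region, 160 (84.7%) did. By replicate, 187 and 309 windows held a late-3rd instar region, against 497 and 778 for mid-3rd instar.

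Repeated gene clusters differed among themselves. The ribosomal RNA end of the X, which carries the repeated genes for the large ribosomal RNAs, did not separate the stages and held 26 and 20 peaks in the late-3rd instar replicates, against 24 and 23 in the mid-3rd instar replicates. All 17 late-3rd instar peaks of high confidence there were matched at high confidence at mid-3rd instar, and 15 of the 17 of mid-3rd instar were matched at late-3rd instar. The histone gene array of 2L, which holds the repeated genes of the core histones and histone H1, had 3 and 6 peaks at late-3rd instar, against 58 and 49 at mid-3rd instar. It held 8 merged regions and 1 high-confidence peak at late-3rd instar, against 27 and 15 at mid-3rd instar, and the replicates of the stages did not overlap. The 5S ribosomal RNA genes of 2R, which lie apart from the other ribosomal RNA genes, had 2 and 1 peaks at late-3rd instar, against 24 and 11 at mid-3rd instar. Reads of repeated genes cannot be given to 1 copy, so peaks in these clusters describe the cluster and not single genes.

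**Figure D4:**
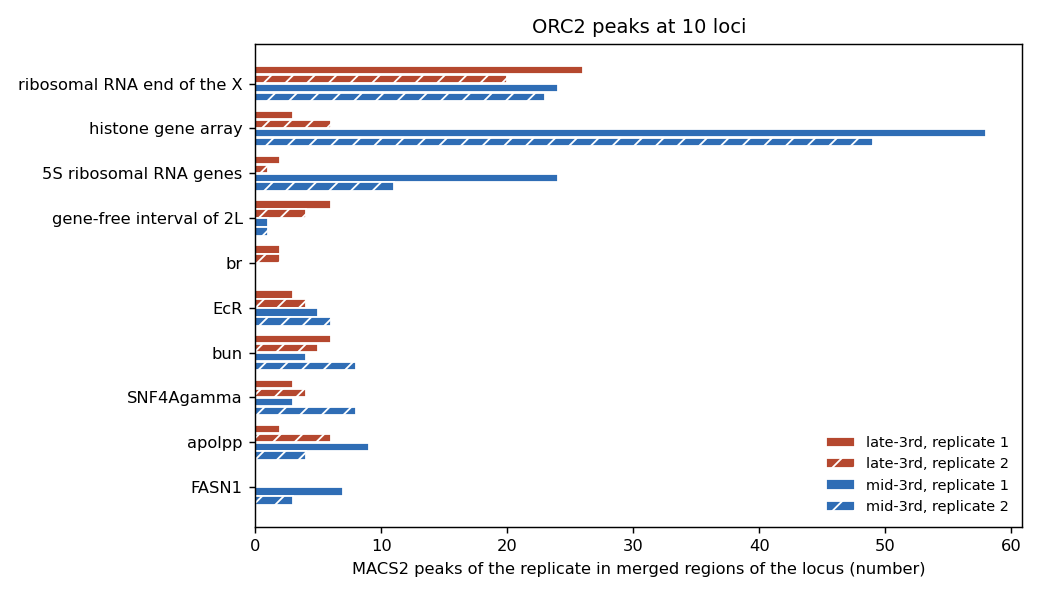
Number of MACS2 peaks of each replicate (horizontal axis) inside merged ORC2 regions at 10 loci, with the late-3rd instar replicates above the mid-3rd instar replicates. Bars are single replicates and have no error; the ribosomal RNA end of the X holds 20 to 26 peaks in every replicate, while the histone gene array holds 3 and 6 at late-3rd instar and 58 and 49 at mid-3rd instar.

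Over all 17807 genes of the table, 853 (4.79%) had a late-3rd instar region in them or within 1 kb and 3195 (17.9%) had a mid-3rd instar region. Of the mid-3rd instar genes, 679 (21.3%) also had a late-3rd instar region, and this was 17.8% without late-3rd instar replicate 1 and 7.2% without replicate 2. Of the late-3rd instar genes, 174 (20.4%) had no mid-3rd instar region. By replicate, 333 and 645 genes had a late-3rd instar peak and 1473 and 2849 a mid-3rd instar peak, and 98 had peaks of all 4 replicates. Genes lost with peaks of both mid-3rd instar replicates numbered 671, while 5 genes were gained with peaks of both late-3rd instar replicates. Longer genes can hold more regions: the median length was 3761 bp for genes with regions at both stages, 2116 bp for late-3rd instar only, 2512 bp for mid-3rd instar only and 1566 bp for neither.

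Heat shock and stress genes, which encode chaperones and their regulator, had a region at mid-3rd instar in all 20 listed cases (100%, against 17.9% of all genes), 13 of them (65%) with peaks of replicate 1 and 20 with peaks of replicate 2. At late-3rd instar 10 of the 20 (50%, against 4.79%) did. All 10 had late-3rd instar peaks of replicate 2 and 0 had any of replicate 1, so the late-3rd instar count rests on 1 replicate. Those that kept a region were 5 Hsp70 genes, Hsp23, Hsp27, Hsp83, Hsc70-4 and lncRNA:Hsromega, the noncoding stress RNA, and among those without one were Hsf, the heat shock transcription factor, Hsp22, Hsp26 and Hsp68. Whether reads can be told apart between the Hsp70 copies was not tested, so these 5 may not be separate sites. Neighbours share regions, so the 20 genes stand for 8 late-3rd instar and 19 mid-3rd instar regions. The list was chosen with earlier results of these data known, so its shares are no measure of enrichment over all genes.

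**Figure D5:**
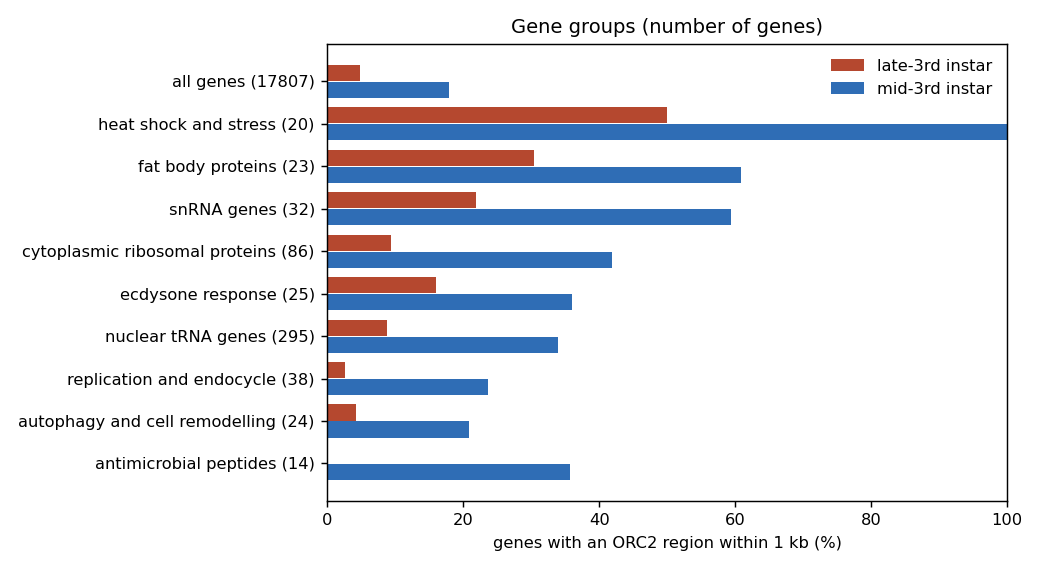
Share of the genes of each group (percent, horizontal axis) with an ORC2 region in them or within 1 kb, with late-3rd instar bars above mid-3rd instar bars and the number of genes in brackets. The first pair of bars gives all genes, 4.79% and 17.9%. Heat shock and stress genes reach 50% and 100%, and antimicrobial peptide genes 0% and 35.7%. The groups were chosen with earlier results of these data known.

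Genes of ecdysone signalling, whose products carry the hormone response that starts metamorphosis, had a region in 4 of 25 cases at late-3rd instar (16%, against 4.79% of all genes) and in 9 of 25 at mid-3rd instar (36%, against 17.9%), and 3 had both. The genes of this group are long, with a median length of 21112 bp. EcR, the ecdysone receptor, held 3 and 4 peaks in the late-3rd instar replicates, against 5 and 6 in the mid-3rd instar replicates. Its 6 late-3rd instar and 8 mid-3rd instar regions shared 4 positions. Transfer RNA genes lie within EcR and some of these regions are near them, so the lists do not tell which gene those regions belong to. Eip75B, an early-response nuclear receptor, held 2 and 3 peaks at late-3rd instar, against 2 and 5 at mid-3rd instar, values that overlap between the stages. Eip74EF, an early-response ETS factor, held 0 and 1 peaks at late-3rd instar, against 1 and 5 at mid-3rd instar.

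The single gene of the group that was gained was br, which encodes the Broad-Complex zinc finger factors that specify the pupal stage. It held 2 and 2 peaks in the late-3rd instar replicates, against 0 and 0 in the mid-3rd instar replicates, at 1628219 to 1628819 and 1634928 to 1635551 on the X. Neither was near a 2nd instar region, and both also lie within Mur2B, a mucin-related gene that spans br, so the lists do not tell which gene the regions belong to. In the other direction ftz-f1, a nuclear receptor that sets the timing of prepupal responses, held no peak at late-3rd instar, against 2 in each mid-3rd instar replicate. The gene usp, the partner of EcR, had 1 mid-3rd instar region from replicate 2 only and none at late-3rd instar.

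Fat body genes had a region in 7 of 23 cases at late-3rd instar (30.4%) and in 14 of 23 at mid-3rd instar (60.9%), both above the shares of all genes. All 7 had late-3rd instar peaks of replicate 2, and 1 of them, apolpp, also had peaks of replicate 1. Among genes of storage proteins, which the fat body secretes and takes back for metamorphosis, Lsp2 had 0 and 2 peaks at late-3rd instar, against 0 and 1 at mid-3rd instar, and Lsp1beta and Lsp1gamma kept a region with 1 peak each of late-3rd instar replicate 2. Lsp1alpha had none at late-3rd instar and 1 peak in each mid-3rd instar replicate. Fbp1, the receptor for storage proteins, had 1 peak of late-3rd instar replicate 2 and none at mid-3rd instar.

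Of the 14 fat body genes with a mid-3rd instar region, 57.1% had none at late-3rd instar, against 78.7% of all such genes. FASN1, the fatty acid synthase, held no peak in either late-3rd instar replicate, against 7 and 3 in the mid-3rd instar replicates. FASN2, its neighbour, held none at late-3rd instar, against 3 and 4 at mid-3rd instar. The lipase bmm, the acyltransferase mdy and the lipid droplet protein Lsd-2 had mid-3rd instar peaks of replicate 2 only and none at late-3rd instar. By contrast apolpp, which encodes the lipid carrier apolipophorin and lies on chromosome 4, held 2 and 6 peaks at late-3rd instar, against 9 and 4 at mid-3rd instar, and kept 5 of 7 regions.

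Of 38 genes for origin factors, helicase subunits, polymerases and cell cycle regulators, 1 had a late-3rd instar region (2.63%, against 4.79% of all genes) and 9 a mid-3rd instar region (23.7%, against 17.9%), counts near those of all genes. The one kept was E2f1, the transcription factor of the G1 to S transition, with 0 and 1 peaks at late-3rd instar, against 1 and 1 at mid-3rd instar. The mid-3rd instar high-confidence peak there lay within 1 kb of both InR and E2f1 and overlapped neither. The lists therefore do not tell which gene it belongs to. Among those with a mid-3rd instar region only were the MCM genes Mcm2, Mcm3, dpa and Mcm7, the cyclin gene CycE, dup, which encodes the helicase loader Cdt1, and fzr, the activator of the anaphase-promoting complex in the endocycle. Apart from fzr, these had a peak of mid-3rd instar replicate 2 alone, the replicate with the most peaks.

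Autophagy genes, which act when the fat body is remodelled, had a region in 1 of 24 cases at late-3rd instar (4.17%) and 5 of 24 at mid-3rd instar (20.8%), near the 4.79% and 17.9% of all genes. The 1 kept, Atg1, the kinase that starts autophagy, had 1 and 1 peaks at late-3rd instar, against 0 and 2 at mid-3rd instar. Antimicrobial peptide genes had 0 of 14 at late-3rd instar and 5 of 14 at mid-3rd instar (35.7%), AttA, AttB, AttC, CecC and Drs, all from mid-3rd instar replicate 2 alone. Their counts therefore rest on 1 replicate of the earlier stage.

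Genes of ribosomal proteins, transfer RNAs and small nuclear RNAs held regions of either replicate more often than all genes at both stages. By peaks of late-3rd instar replicate 1, only transfer RNA genes did (4.07%, against 1.87% of all genes). Ribosomal protein genes stood at 1.16% and small nuclear RNA genes at 0% in that replicate. Cytoplasmic ribosomal protein genes had a region in 8 of 86 cases at late-3rd instar (9.3%) and 36 of 86 at mid-3rd instar (41.9%, with 19 by peaks of replicate 1 and 31 by peaks of replicate 2), and all 8, among them RpL3, RpL5, RpL32 and RpS3A, were also mid-3rd instar genes. Only RpS3A, which lies on chromosome 4, had a peak of late-3rd instar replicate 1. Transfer RNA genes had a region in 26 of 295 cases (8.81%) at late-3rd instar and 100 of 295 (33.9%) at mid-3rd instar, on 16 separate late-3rd instar and 45 mid-3rd instar regions. By replicate these were 12 and 15 tRNA genes at late-3rd instar, against 57 and 75 at mid-3rd instar, and 1 had peaks of all 4 replicates. Small nuclear RNA genes of the spliceosome and related genes had 7 of 32 (21.9%) at late-3rd instar and 19 of 32 (59.4%) at mid-3rd instar, and the 7 had peaks of late-3rd instar replicate 2 alone. The kept shares of these groups, 22.2%, 20% and 36.8%, stand beside the 21.3% of all genes.

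Markers of other cells were few, and their counts are given beside the 4.79% of all genes at late-3rd instar and 17.9% at mid-3rd instar. None of 9 salivary gland glue genes and none of 4 muscle genes had a region at either stage. Of 6 testis marker genes, vas alone had one at each stage (0 and 1 peaks at late-3rd instar, 1 and 0 at mid-3rd instar). Of 4 hemocyte genes, Hml and NimC1 had a mid-3rd instar region of replicate 2. A region near a gene is no measure of its expression, so these counts do not test the purity of the tissue.

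A few long genes carried clusters of sites at both stages and were chosen for description once their values were known. The gene bun, which encodes a TSC22 family growth regulator, held 6 and 5 peaks at late-3rd instar, against 4 and 8 at mid-3rd instar. SNF4Agamma held 3 and 4 peaks at late-3rd instar, against 3 and 8 at mid-3rd instar. The stages overlapped at bun and met at SNF4Agamma, yet the regions themselves were only partly the same: 6 of the 9 late-3rd instar regions of bun and 4 of the 7 of SNF4Agamma had a mid-3rd instar region within 1 kb. At pan, the TCF factor of Wnt signalling on chromosome 4, 5 and 3 peaks at late-3rd instar stood against 2 and 6 at mid-3rd instar, and 2 of the 6 late-3rd instar regions were kept.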

How the data were processed

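Fat body of male OregonR larvae was profiled by ORC2 ChIP-seq in 2 biological replicates with input at each stage, and groups were taken from the sample labels. Reads were aligned with Bowtie2 and peaks called per replicate with MACS2 per the submitters' processing notes. The authors deposited merged regions, whose names give the replicate of each peak but no score. They also deposited high-confidence peaks with the authors' IDR, a rate that is read like a q-value and is not a p-value. The methods and labels name dm3, but 61.1% of the 2759 regions lay within 1 kb of a Release 6 gene end, against 36.2% after a shift of 2000 bp and 27.4% after 100000 bp, so positions were read as Release 6. Sequencing depth is not given in the sources used here.

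Regions within 1 kb, edge to edge, were counted as shared. Shares carry 95% Wilson intervals, and peak counts were compared by an exact permutation test over replicates. Regions are not replicates, and no test was made over them or over gene groups. Genes came from the RefSeq table of Release 6, which gives no strand. Sites named are up to 10 each, by lowest IDR, of those kept, lost and gained; genes are those at the sites and in the listed groups. One site that this rule names is not reported here. Members and lists were chosen with earlier results of these data known. Alternatives were the shared distance, both replicates required, a stricter IDR of 0.05, leaving out chromosome 4, the Y and the ribosomal RNA end of the X, the gene rule, and leaving out each replicate. Sequences under the peaks were not analysed here. The overlap count was tested on simulated data. Python 3.11.15, numpy 2.4.6, pandas 2.3.3 and scipy 1.17.1 were used.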

Additional observations from a re-analysis of the deposited data

How the results depend on the processing

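The share of mid-3rd instar regions kept (21%) was 18.7% for direct overlap, 29% within 5 kb, 18.8% without chromosome 4, the Y and the ribosomal RNA end of the X, and 9.79% with both replicates required at each stage. Leaving out each replicate gave 6.38% (without late-3rd instar replicate 2) to 36.6% (without mid-3rd instar replicate 2). The share of late-3rd instar regions also listed at mid-3rd instar (60.3%) was 54% for direct overlap and 71.1% within 5 kb, and leaving out each replicate gave 38.6% (without late-3rd instar replicate 2) to 79.9% (without late-3rd instar replicate 1). At high confidence the kept share of 10.1% was 4.8% without chromosome 4, the Y and the ribosomal RNA end of the X and 53.4% against all regions, and the late-3rd instar share of 53.3% was 36.1% and 83.3%. With both replicates required, 91 late-3rd instar and 582 mid-3rd instar regions were left. Leaving out a replicate left 329 to 468 late-3rd instar and 817 to 1818 mid-3rd instar regions. The share of mid-3rd instar genes kept (21.3%) was 17.8% without late-3rd instar replicate 1 and 7.2% without replicate 2, an alternative chosen after seeing the data. The cause was not tested.

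The difference in peaks per replicate stayed negative, at -1559 to -495, when each replicate was left out. With the replicate block it was -1027 with an exact permutation p of 0.5, the smallest that 2 pairs allow; the samples share only a number. Counts of genes with a region were 572 and 2204 at late-3rd and mid-3rd instar for regions in the gene itself. Leaving out a replicate was not run for the high-confidence lists, whose IDR needs both, nor was the promoter description. With 2 replicates per stage and unknown depth, no difference could pass 0.05.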
